A study of Mus musculus with 11 samples.

Results

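Glutathione peroxidases are the 8 genes Gpx1 to Gpx8, and their transcripts were followed in the aorta of old mice that drank sodium nitrate. All probes that carry one of these names in the array files were taken, with no use of measured values. This gave 8 probes among 55681 on the array, 1 for each gene, and 8 of 36413 gene names. Of these, 5 probes passed detection (Gpx1, Gpx3, Gpx4, Gpx7 and Gpx8) and 3 did not (Gpx2, Gpx5 and Gpx6).

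The old nitrate treated group held 5 male C57BL/6 mice aged 20 months that drank water with 1 g/L NaNO3 during 8 weeks. The old control group held 6 male C57BL/6 mice of the same age and on the same standard chow. According to the study's methods the controls were given sodium chloride at an equal concentration, whereas the labels call their agent control and describe each control array as a re-analysis of an earlier sample. The sources used here do not say whether both groups were housed and treated together, so cohort and treatment cannot be told apart. RNA came from the descending aorta of individual mice, cleaned of surrounding fat and connective tissue, and was hybridized to one-color Agilent mouse arrays. The study describes 6 replicates in each group, so that the sixth nitrate treated mouse is not analysed here. The comparison asks which transcripts of the old vessel differ after nitrate supplementation.

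Glutathione peroxidases reduce hydrogen peroxide and organic hydroperoxides to water and alcohols, typically but not in every member with glutathione as the electron donor. Gpx1, Gpx2, Gpx3 and Gpx4 carry selenocysteine at the active site in the mouse, whereas Gpx5, Gpx7 and Gpx8 carry cysteine. In the vessel wall these enzymes limit the peroxides that inactivate nitric oxide and oxidize membrane lipids.

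The array is a bulk measurement on the whole vessel, so fewer cells of a type and less RNA per cell cannot be told apart. Adipocyte markers were detected on these arrays although the fat was removed, and striated muscle markers were high in control 1 and nitrate 4. The 11 arrays lay on 3 slides. All 6 control arrays lay in slide column 3 and no nitrate array did, so slide column and treatment cannot be told apart. The 75th percentile of the processed signal ranged from 213 to 289 between arrays and no spot was saturated.

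The probes that carried the differences are shown with the Gpx1 probe, which did not differ. Each is a 60-base DNA oligo read from the array files, written 5′ to 3′ in lower case, and positions are those of the mm9 build that the files name. The Gpx1 probe lies at chr9:108242276-108242335 on the plus strand. The Gpx4 probe covers chr10:79518691-79518842 on the plus strand, which is 152 bases and thus 92 more than its length, so it joins transcript parts that are separated in the genome. The Gpx3 probe lies at chr11:54723436-54723495 on the plus strand, from base 1000 of its transcript, and its first 30 bases are given. Exon and UTR annotation of mm9 was not used here.
Gpx1: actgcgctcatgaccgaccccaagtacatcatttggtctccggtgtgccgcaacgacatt
Gpx4: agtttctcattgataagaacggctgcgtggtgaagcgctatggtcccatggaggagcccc
Gpx3, first 30 bases: ttttttcagctttctgttccaaatgagccc

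The member probes can be told apart by sequence. Between any pair of the 8 probes the longest shared run was 7 bases. Against the probes of all other genes on the array, the longest shared run was 13 bases for Gpx1 and Gpx4 and 16 bases for Gpx3, and no probe of another gene shared 20 bases with any member.

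The RefSeq promoter windows of Gpx3 and Gpx4 are shown because these were the 2 members that differed between the groups. A window holds 300 bases around a transcript start, most of them upstream, in build GRCm38.p6, and all 8 genes had at least 1 window. Gpx4 had 4 windows for alternative starts, of which 1 is given. Capitals mark CCAAT, or ATTGG on the other strand, a motif of many promoters.
Gpx3, chr11:54902604-54902903, plus strand: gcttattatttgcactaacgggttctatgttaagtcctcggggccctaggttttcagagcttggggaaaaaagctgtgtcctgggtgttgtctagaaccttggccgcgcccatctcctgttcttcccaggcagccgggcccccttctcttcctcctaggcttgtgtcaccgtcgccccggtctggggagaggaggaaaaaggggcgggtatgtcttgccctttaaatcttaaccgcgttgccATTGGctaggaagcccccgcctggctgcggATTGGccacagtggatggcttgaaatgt
Gpx4, chr10:80053315-80053614, plus strand: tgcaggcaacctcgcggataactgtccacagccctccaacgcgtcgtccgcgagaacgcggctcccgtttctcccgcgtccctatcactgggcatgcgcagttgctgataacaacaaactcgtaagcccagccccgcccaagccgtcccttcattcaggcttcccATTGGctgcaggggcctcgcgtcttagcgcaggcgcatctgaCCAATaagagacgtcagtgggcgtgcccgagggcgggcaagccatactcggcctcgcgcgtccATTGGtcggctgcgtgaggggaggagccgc

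Both strands were searched for 3 motifs. CCAAT occurred 2 times in the Gpx3 window and 3 times in the Gpx4 window shown, with 0 to 3 matches in its other windows. The other Gpx4 window with 3 matches overlaps the one shown and holds the same sites. The Gpx2, Gpx5 and Gpx6 windows held 1 each, and the Gpx1, Gpx7 and Gpx8 windows held none. Of all 32851 RefSeq windows, 37.4% held CCAAT at least 1 time, and the share with 2 or 3 matches was not counted. The GC box GGGCGG, present in 35.7% of all windows, occurred 1 time in the Gpx3 window and 2 times in the Gpx4 window shown, with 0 to 2 matches in the other Gpx4 windows. The Gpx1 and Gpx7 windows also held 1 each, and those of Gpx2, Gpx5, Gpx6 and Gpx8 none. The core of the antioxidant response element, TGACNNNGC, occurred in 12.4% of all windows and in none of those of the 8 members. No base lay in matches of more than 1 of these motifs.

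Transcripts of 2 of the 5 detected glutathione peroxidases were lower in the aorta of nitrate treated mice, those of the secreted enzyme Gpx3 and of the lipid peroxidase Gpx4. Adipocyte markers were lower in the same mice, and with their mean as a covariate Gpx4 was not called while Gpx3 was (adjusted P = 0.387 by limma). The marker mean itself correlated with treatment at r = -0.70, so in this fit the covariate and treatment overlap. The other detected members, Gpx1, Gpx7 and Gpx8, did not pass the limits. The limits were those of the study, a P value under 0.05 without adjustment together with more than a 1.2-fold change, and a probe past both is called here. By these limits 9.00% of the 23630 detected probes were called, and 4.85% were called with lower signal in nitrate treated mice. With normexp background correction the first share was 5.15%, and Gpx3 and Gpx4 were called there too. Groups did not overlap at 2.75% of detected probes, and at 1.14% the nitrate treated mice were lower without overlap. Both Gpx3 and Gpx4 fell into this last class. At an adjusted P value under 0.05 by limma, no member and 3 of the 23630 probes were called. With single arrays left out that count ran from 0 to 8 probes, with 0 without nitrate 1, 7 without nitrate 4 and 8 without control 6. Gpx3 passed without nitrate 4 (adjusted P = 0.0400 by limma) and without both control 1 and nitrate 4 (adjusted P = 0.0327 by limma). Nitrate 4 had the highest Gpx3 value of its group and control 1 the lowest of the controls, so leaving them out widens the difference. Without any other single array the adjusted P value of Gpx3 lay between 0.0955 and 0.237 by limma.

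Gpx3 is secreted and is the main glutathione peroxidase of blood plasma. Quantile normalized log2 signals were 12.71, 12.75, 12.68, 13.22 and 12.84 in nitrate treated mice 1 to 5. In the 6 controls the lowest value was 13.27, the median 13.44 and the highest 13.61. All nitrate treated mice lay below all controls, and nitrate 4 came closest to them. The means were 12.84 ± 0.22 (SD, n = 5) with nitrate and 13.44 ± 0.12 (SD, n = 6) without. The difference was -0.60 log2 units (SE 0.10, 95% confidence interval -0.83 to -0.38), a 1.52-fold lower signal. The limma P value was 7.84e-05, the adjusted P value 0.0878 and the two-sided exact permutation P value 0.00216, the smallest that the possible divisions of the mice can give. By P value the probe stood at rank 20 of the 23630 detected probes. Within slides the differences were -0.71, -0.79 and -0.39.

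The background-subtracted Gpx3 signal before normalization ran from 5608 to 10298 in nitrate treated mice and from 9133 to 13100 in controls. On this scale the groups overlapped, with nitrate 4 above several controls. The neighbouring gene Tnip1, on the opposite strand, had probes with centres 855 and 915 bases from that of the Gpx3 probe. They differed by -0.03 (SE 0.08, adjusted P = 0.908 by limma) and -0.06 (SE 0.07, adjusted P = 0.742 by limma).

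Gpx4 reduces phospholipid hydroperoxides within membranes and is the enzyme that holds back ferroptosis, a form of cell death driven by lipid peroxidation. Log2 signals were 14.33, 14.43, 14.50, 14.61 and 14.73 in nitrate treated mice 1 to 5. In controls they ran from 14.73 to 15.40 with a median of 14.95. The groups did not overlap, but only narrowly, since nitrate 5 at 14.726 lay next to control 6 at 14.735. Before normalization they overlapped, at 19916 to 31396 with nitrate and 23699 to 42932 in controls. The means were 14.52 ± 0.15 (SD, n = 5) and 15.01 ± 0.24 (SD, n = 6), and the difference was -0.49 (SE 0.12, 95% confidence interval -0.75 to -0.22), a 1.40-fold lower signal. With the mean of the adipocyte markers, which were also lower with nitrate (10 of 17 called), as a covariate, the difference was -0.15 and Gpx4 was not called. Without the covariate, the limma P value was 0.00162, the adjusted P value 0.152 and the two-sided exact permutation P value 0.00433. Within slides the differences were -0.75, -0.38 and -0.34. The Sbno2 probe, on the opposite strand with its centre 1522 bases from that of the Gpx4 probe, differed by -0.03 (SE 0.11, adjusted P = 0.940 by limma).

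**Figure D1:**
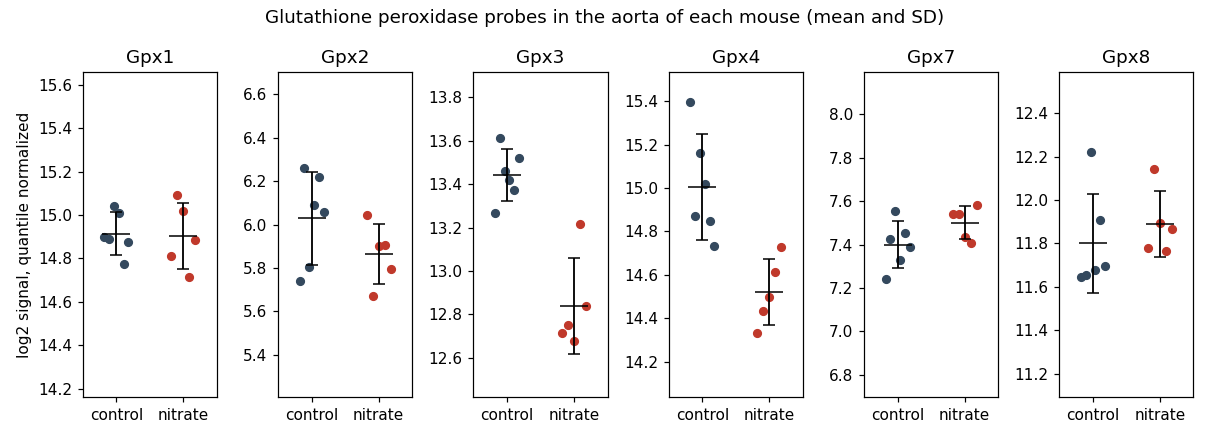
Quantile normalized log2 signal of the 6 glutathione peroxidase probes that were well above background, 1 point per mouse, in 6 controls and 5 nitrate treated mice, with mean and SD. Each panel spans the same number of log2 units around its own mean; for Gpx3 and Gpx4 all nitrate treated mice lie below all controls, and for the other 4 probes the groups overlap.

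Gpx1 is the ubiquitous enzyme of cytosol and mitochondria. Log2 signals were 14.81, 15.09, 15.02, 14.71 and 14.89 in nitrate treated mice 1 to 5, and in controls they ran from 14.77 to 15.04 with a median of 14.89. The groups overlapped over nearly the whole range. The difference was -0.01 (SE 0.08, 95% confidence interval -0.19 to 0.17, adjusted P = 0.969 by limma).

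Gpx7 and Gpx8 reside in the endoplasmic reticulum, where they pass the oxidizing power of peroxide to protein folding. For Gpx7, at chr4:108072995-108073054, log2 signals were 7.54, 7.54, 7.43, 7.41 and 7.58 in nitrate treated mice, and in controls they ran from 7.24 to 7.56 with a median of 7.41. The difference of 0.10 (SE 0.07, 95% confidence interval -0.05 to 0.25) had an adjusted P value of 0.523 by limma, and the ranges overlapped. For Gpx8, at chr13:113833213-113833272, log2 signals were 11.78, 12.14, 11.89, 11.77 and 11.87 in nitrate treated mice, and in controls they ran from 11.64 to 12.22 with a median of 11.69. Control 3 gave the highest value of both groups. The difference was 0.09 (SE 0.11, 95% confidence interval -0.16 to 0.34, adjusted P = 0.766 by limma). It was 0.17 without control 3 and 0.025 without nitrate 2, and within slides it was 0.31, 0.20 and -0.25.

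Gpx2, with its probe at chr12:77893402-77893461, is best known from the epithelium of the gut. On each of the 11 arrays its probe stood well above background, but the spot was marked as found on only 6, so it did not enter the test over detected probes. Log2 signals were 6.04, 5.67, 5.90, 5.91 and 5.80 in nitrate treated mice and ran from 5.74 to 6.26 in controls. The ranges overlapped, and in a fit over all probes the difference was -0.16 (SE 0.11, 95% confidence interval -0.41 to 0.08). The two-sided exact permutation P value was 0.173. With normexp background correction the Gpx2 difference was -0.06. With the adipocyte marker mean as a covariate it was -0.39, past the limits (adjusted P = 0.638 by limma).

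Gpx5 is known from the epididymis and Gpx6 from the olfactory epithelium. Their probes lie at chr13:21378308-21378367 and chr13:21411049-21411108, and neither was well above background on any of the 11 arrays. The processed signal of both stayed below 10 on every array, and no fold change is given.

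The differences were then compared between members within each mouse, by the log2 signal of one member minus that of another. Of the 10 pairs of detected members, 6 had an adjusted P value under 0.05 in two-sided exact permutation tests with Benjamini-Hochberg adjustment over the pairs. These were Gpx3 and Gpx4, each against Gpx1, Gpx7 and Gpx8. The pairs share members and use the same values as the single differences, so they are not independent of them. The Gpx3 difference was lower than the Gpx7 difference by a log2 difference of -0.70 (exact adjusted P = 0.0108) and than the Gpx8 difference by -0.69 (exact adjusted P = 0.0144). Gpx4 against Gpx7 gave -0.59 (exact adjusted P = 0.0108). Gpx1 against Gpx3 gave 0.59 and Gpx1 against Gpx4 gave 0.47, both with an exact adjusted P value of 0.0144. Groups did not overlap for 3 pairs, Gpx3 with Gpx7 and Gpx4 with Gpx7 and Gpx8. Gpx3 and Gpx4 differed from each other by -0.12 (exact adjusted P = 0.551), and the remaining 3 pairs, among Gpx1, Gpx7 and Gpx8, also missed the threshold.

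**Figure D2:**
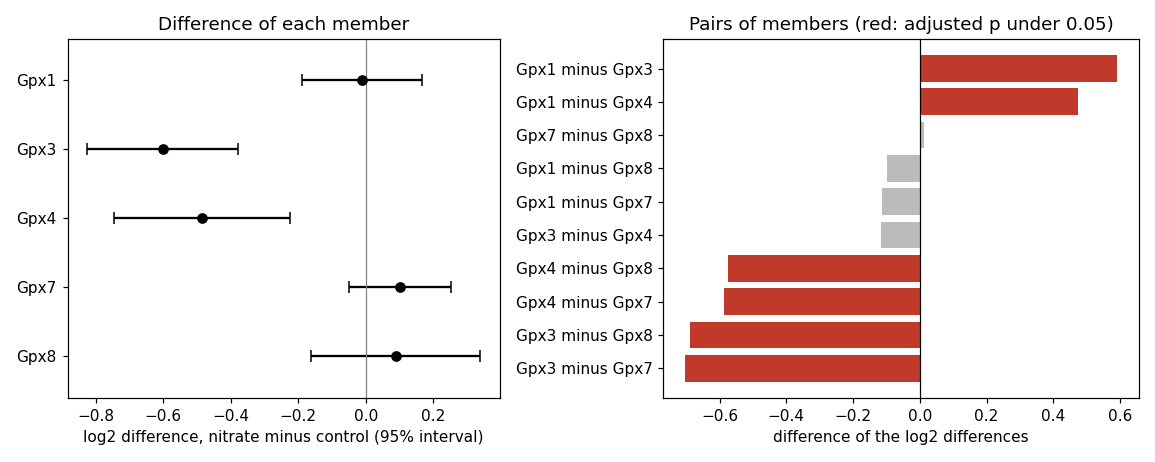
Left, log2 difference between 5 nitrate treated and 6 control mice for each detected member with its 95% confidence interval; the intervals of Gpx3 (-0.83 to -0.38) and Gpx4 (-0.75 to -0.22) lie below 0 and those of Gpx1, Gpx7 and Gpx8 include it. Right, for each of the 10 pairs the first member's difference minus that of the second, with the 6 pairs of adjusted exact permutation P value under 0.05 in red.

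Over the 11 mice, after the mean of each group was taken away, Gpx3 and Gpx4 had a Pearson r of -0.09, and the highest correlation between detected members was that of Gpx7 and Gpx8 (r = 0.70). By the same measure, the genes most like Gpx4 among 15480 probes with a gene symbol were Fabp4 (r = 0.98), which encodes the fatty acid binding protein of adipocytes, Gys1 (r = 0.98), the muscle form of glycogen synthase, and Mpzl2 (r = 0.98). Those most like Gpx3 were Scnm1 (r = 0.97), Zfp142 (r = 0.88) and Mrps25 (r = 0.88). Those most like Gpx7 were Mfsd6 (r = 0.94), Med28 (r = 0.93) and Tmem33 (r = 0.93). With the group difference kept, r was 0.19, 0.13 and 0.21 for the genes named with Gpx3. For those named with Gpx4 and Gpx7 it was then at least 0.82. These values are descriptions over 11 mice that share arrays and normalization.

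Adipocyte markers moved with the groups. Of 17 listed markers all were detected, 16 were lower in nitrate treated mice and 10 were called lower. Their summed normalized signal ran from 396941 to 546525 in nitrate treated mice and from 523577 to 691673 in controls. The mean log2 signal of the list differed by -0.38 (two-sided exact permutation P = 0.0130). The leading marker Adipoq, which encodes adiponectin, was at 14.30 ± 0.18 (SD, n = 5) with nitrate and 14.79 ± 0.19 (SD, n = 6) in controls, without overlap.

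Gpx4 rose with these markers among the controls, and for Gpx3 the relation was negative and missed the threshold. Over the 6 controls, Gpx4 correlated with the adipocyte marker mean at Pearson r = 0.95 (exact permutation P = 0.00139, adjusted 0.00278 over 2 relations) and Spearman rho = 1.00 (exact permutation P = 0.00278, adjusted 0.00556). Without the 2 controls farthest from the median of the marker mean, r was 0.93. For Gpx3, r was -0.55 (exact permutation P = 0.264, adjusted 0.264), rho was -0.49 (exact permutation P = 0.356) and r was -0.29 without the 2 farthest controls. No correlation is given for 5 mice. In nitrate treated mice 1 to 5 the marker mean was 12.86, 13.08, 13.15, 13.38 and 13.23. Gpx3 was highest in nitrate 4 and next in nitrate 5, the mice with the highest marker means, so in this group it ran upwards with the markers, unlike in the controls. Gpx4 was lowest in nitrate 1, which had the lowest marker mean, and also ran upwards. Whether the relation differs between the groups was not tested. With the marker mean as a covariate, the Gpx4 difference was -0.15 (SE 0.09, adjusted P = 0.622 by limma) and was not called, and the Gpx3 difference was -0.55 (SE 0.15, adjusted P = 0.387 by limma) and was still called. The marker mean itself correlated with treatment at r = -0.70 over the 11 mice, so the covariate and treatment overlap, and the fit assumes 1 slope for both groups.

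**Figure D3:**
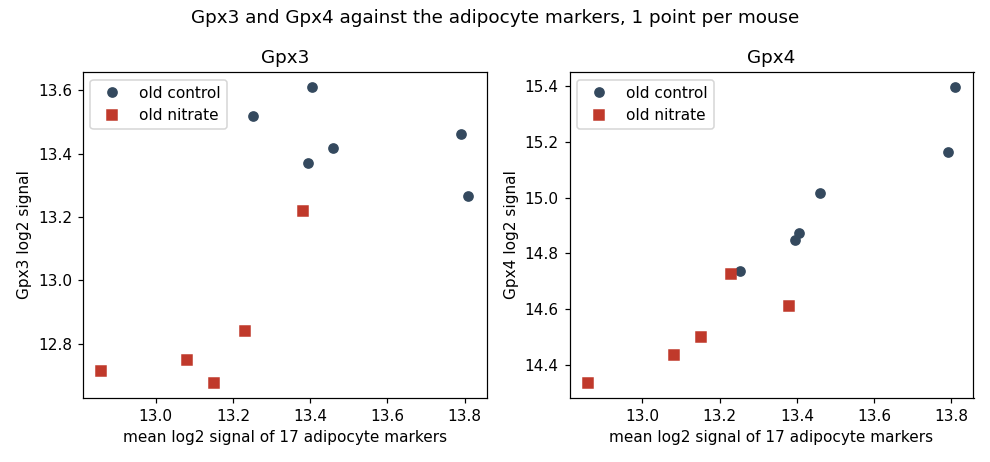
Log2 signal of Gpx3 (left) and Gpx4 (right) against the mean log2 signal of 17 adipocyte markers, 1 point per mouse, in 6 controls (circles) and 5 nitrate treated mice (squares). Gpx4 rises with the markers among the controls (r = 0.95), whereas for Gpx3 the controls run downwards and the nitrate treated mice upwards, with nitrate 4 highest of its group in both measures.

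Markers of other cell types gave fewer calls, and all listed smooth muscle and endothelial markers of the vessel wall were detected. Of 10 smooth muscle markers 9 were higher with nitrate, with a median difference of 0.18, and 1 was called higher. Smtn was higher without overlap but short of the fold limit, at 0.26, and was named after its value was seen. Acta2, the smooth muscle actin, differed by 0.03 (SE 0.07). None was called among 10 endothelial, 8 fibroblast, 9 macrophage, 9 detected of 11 striated muscle and 5 detected of 8 erythroid markers by limma. Without the fold limit, an unadjusted P value under 0.05 was reached by 1 endothelial and 2 fibroblast markers and by 0 of the other 3 lists. Their leading markers differed by 0.18 for Pecam1 (SE 0.13), 0.12 for Pdgfra (SE 0.07), 0.12 for Cd68 (SE 0.22), 1.64 for Myh6 (SE 1.29) and -0.45 for Hba-a1 (SE 0.32). Of the endothelial list 5 markers were higher and 5 lower, with a median difference of -0.03. The fibroblast list was higher in all 8 markers, with a mean difference of 0.16 (two-sided exact permutation P = 0.0303). The macrophage list was higher in all 9, with a mean difference of 0.09 (two-sided exact permutation P = 0.50), and that of the smooth muscle list was 0.14 (two-sided exact permutation P = 0.273). The erythroid mean differed by -0.38 (two-sided exact permutation P = 0.292) and the striated muscle mean by 0.72 (two-sided exact permutation P = 0.377). The summed striated muscle signal reached 71341 in nitrate treated mice against a median of 19128, and 48700 in controls against a median of 14301. Of 7 brown adipocyte markers 1 was called higher and 1 lower, and Ucp1 differed by 0.23 (SE 0.38). Without control 1 and nitrate 4, the arrays with high striated muscle markers, the Gpx3 difference was -0.73 and the Gpx4 difference -0.43, both still called. For Gpx3 these arrays were also the lowest control and the highest nitrate treated mouse, so leaving them out widens its difference in any case. The part of smooth muscle, fibroblast, macrophage, erythroid and striated muscle markers in the member differences was not tested.

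The wider pathway was described over 5 lists that held 90 genes, of which 79 were detected. By the same limits 10 genes were called, 4 higher and 6 lower, which is 12.7% of those detected against 9.00% of all detected probes. The median difference was -0.01, against 0.01 over all detected probes. Where a gene had several detected probes, the one of highest mean signal was used. Among the 10 genes, none passed an adjusted P value of 0.05. The count fell to 4 without nitrate 2, 4 without control 1, and 6 without control 2, all among these 10 genes. Calls over all detected probes fell too, to 6.84%, 6.75% and 8.54% in these 3 fits. With the adipocyte covariate 5 genes were called, of which 3 were among the 10 (Nfe2l2, Hmox1 and Sat1) and 2 were not (Cat and Srxn1). In that fit 7.45% of all detected probes were called.

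Genes of glutathione synthesis and recycling supply the typical electron donor of the peroxidases. Of 27 genes 22 were detected, 2 were called higher and 1 lower, and the median difference was -0.06. Nfe2l2, the transcription factor that drives antioxidant genes, was higher by 0.28 (SE 0.09, adjusted P = 0.245 by limma). Ggt7, a member of the gamma-glutamyltransferase family, was higher by 0.34 (SE 0.13, adjusted P = 0.297 by limma). Slc25a10, the mitochondrial dicarboxylate carrier, was lower by a log2 difference of -0.80 (SE 0.28, adjusted P = 0.271 by limma). Without nitrate 4, control 1 or control 2 Nfe2l2 gave 0.22, 0.24 and 0.26 and missed only the fold limit. Without nitrate 2 or control 1 Ggt7 was not called, at 0.26 and 0.24. With the adipocyte marker mean as a covariate neither Ggt7 nor Slc25a10 was called, with normexp background correction Ggt7 was not, and without both control 1 and nitrate 4 Nfe2l2 and Slc25a10 were not. The enzymes that make glutathione gave differences of 0.19 for Gclc (SE 0.09, adjusted P = 0.351), -0.06 for Gclm (SE 0.17, adjusted P = 0.908) and 0.05 for Gss (SE 0.09, adjusted P = 0.845) by limma, and glutathione reductase Gsr gave -0.06 (SE 0.08, adjusted P = 0.782).

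Enzymes that remove peroxides without being glutathione peroxidases mostly showed small differences. All 12 listed were detected, 1 was called lower and none higher, and the median difference was -0.04. The called gene was Prdx5, a peroxiredoxin of mitochondria, peroxisomes and cytosol, at -0.29 (SE 0.09, adjusted P = 0.238 by limma), and it was not called with the adipocyte covariate, at -0.16. Without nitrate 2 it was -0.26 and without control 1 -0.22, which missed only the fold limit. Catalase, Cat, differed by -0.01 (SE 0.11), the peroxiredoxin Prdx1 by -0.03 (SE 0.09) and the thioredoxin reductase Txnrd1 by 0.03 (SE 0.06). Prdx4, the peroxiredoxin of the endoplasmic reticulum, was higher by 0.26 without overlap between the groups (two-sided exact permutation P = 0.00216), just short of the fold limit. It was named after its value was seen.

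Gpx1, Gpx3 and Gpx4 need selenium, and so do the other selenoproteins. Of 20 other selenoproteins 18 were detected, 1 was called lower and the median difference was 0.03. Sepp1, the selenium transport protein of plasma, differed by 0.03 (SE 0.08, adjusted P = 0.901 by limma). Of 14 genes of selenocysteine synthesis and insertion 13 were detected, and again 1 was called lower, with a median of 0.02. In both lists this was Sephs2, which makes the selenium donor, at -0.36 (SE 0.16, adjusted P = 0.332 by limma). Its call held in 11 of 23 alternatives and was lost with the slide as a block, at -0.36, and with the adipocyte covariate, at -0.18. Secisbp2, which recruits the selenocysteine machinery to the message, differed by -0.003 (SE 0.09).

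Genes of lipid peroxidation and ferroptosis act on or beside the lipid substrates of Gpx4. Of 20 genes 17 were detected, 2 were called higher and 3 lower, and the median difference was 0.02. Sat1, a polyamine acetyltransferase, was higher by 0.42 (SE 0.10, adjusted P = 0.130 by limma) without overlap between the groups, and its call held in all 23 alternatives. Hmox1, heme oxygenase 1, was higher by 0.30 (SE 0.09, adjusted P = 0.197 by limma), and without nitrate 2 it was 0.26, which misses the fold limit. Aifm2, a coenzyme Q reductase that suppresses ferroptosis, was lower, at -0.48 (SE 0.16, adjusted P = 0.255 by limma), and lost its call only with the adipocyte covariate. Lpcat3, which places polyunsaturated fatty acids into phospholipids, gave -0.46 (SE 0.20) and Tfrc, the transferrin receptor, gave -0.43 (SE 0.19). Their calls held in 12 and 15 of 23 alternatives. Neither was called without control 1 or with the adipocyte covariate, which gave -0.30 for Lpcat3 and -0.22 for Tfrc. Acsl4, which activates polyunsaturated fatty acids, differed by -0.01 (SE 0.06).

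**Figure D4:**
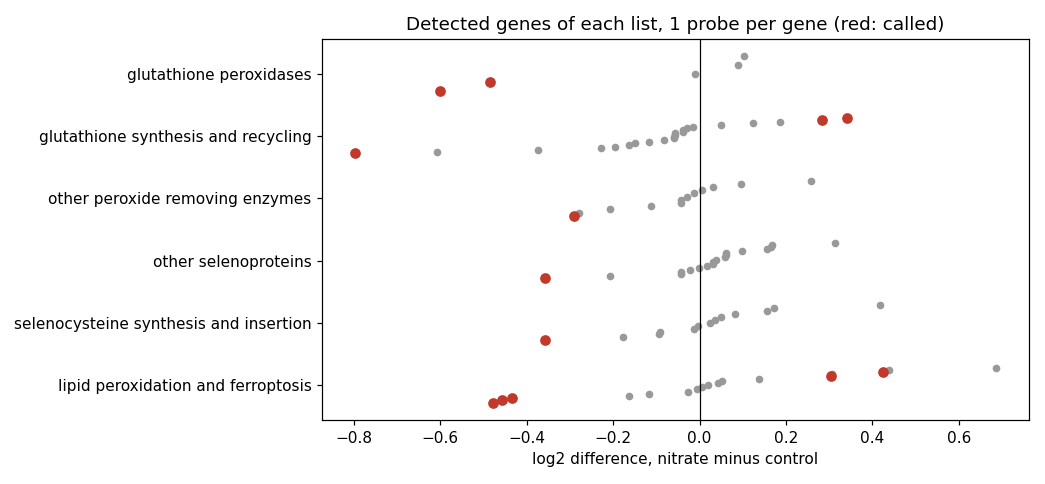
Log2 difference between 5 nitrate treated and 6 control mice for each detected gene of the 5 pathway lists and for the 5 detected glutathione peroxidases, with called genes in red. Of the 79 detected pathway genes 4 were called higher and 6 lower, and Sephs2 stands in 2 lists.

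The Gpx3 and Gpx4 differences were recomputed under other processing. Gpx3 stayed called in every fit, with values between -0.73 and -0.55. Gpx4 stayed called in every fit except the one with the adipocyte marker mean, and the values of the other fits lay between -0.54 and -0.41. When each array was left out in turn, Gpx3 lay between -0.70 and -0.56 and Gpx4 between -0.54 and -0.41.

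**Figure D5:**
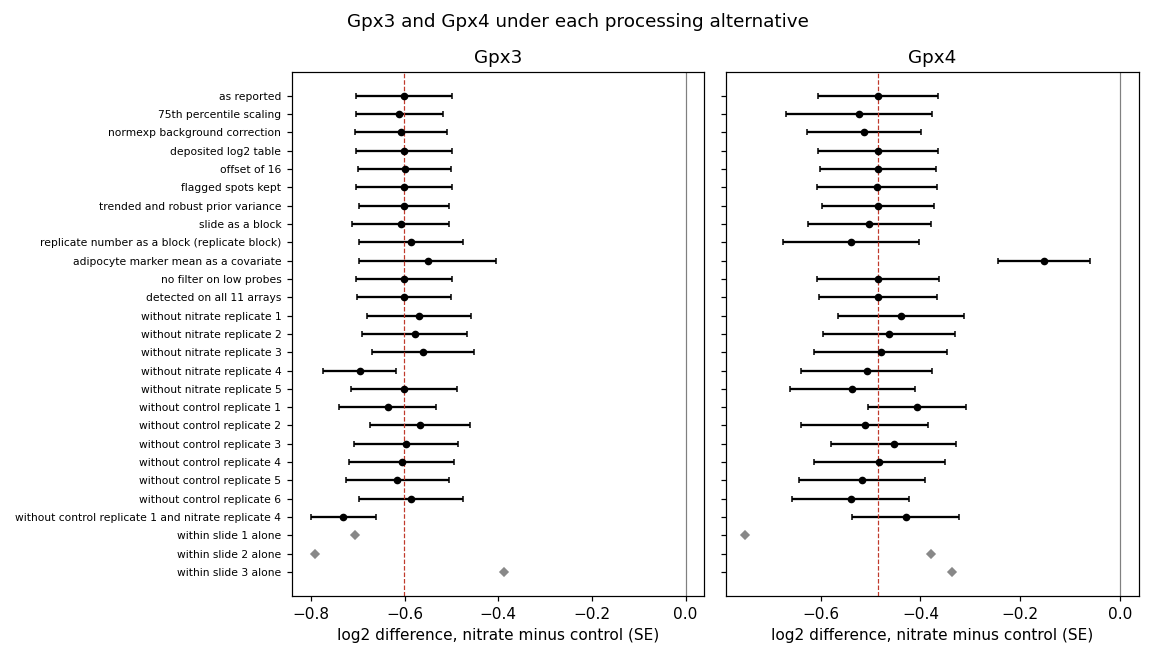
Log2 difference of Gpx3 (left) and Gpx4 (right) under each alternative, as circles with SE for fits and diamonds for values within 1 slide that have no test. The dashed line marks the reported value; all values lie below 0, and Gpx4 lies at -0.15 with the adipocyte marker mean as a covariate.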

How the data were processed

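Total RNA of single aortas was labelled with Cy3 and hybridized by the authors, 1 array per mouse. The authors deposited spot intensity values from Feature Extraction 10.7.1.1, background-subtracted and not normalized between arrays. They also deposited a log2 table, in which quantile normalized values were centred probe by probe on their median, as checked against the intensities (lowest correlation 0.9999). It served as an alternative.

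Processed signals under 1 were set to 1. Signals were then put on the log2 scale, cleared of control and outlier-flagged spots, averaged over the spots of a probe and quantile normalized. Probes whose spot was found and stood well above background in 5 or more mice of a group (23630 of 55681) were compared with lmFit and eBayes (limma 3.58.1, R 4.3.3) and Benjamini-Hochberg adjustment over all of them. Single values were also tested by exact permutation, two-sided, over every division of the mice. The precision is limited by the number of arrays.

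The members, gene lists, motifs and tests were chosen with earlier results of these data known. Genes named were all members, the called genes of each pathway list (at most 5), 11 fixed genes of these lists, the leading marker of each cell type, and the 3 genes most correlated with Gpx3, Gpx4 and Gpx7, the detected members of largest difference. Prdx4, Smtn and Srxn1 were added later, and Tnip1 and Sbno2 as neighbours of Gpx3 and Gpx4 with detected probes. Replicate numbers do not pair the mice. Alternatives covered scaling, background, offset, detection, flagged spots, prior variance, blocks, the adipocyte covariate and left-out arrays. Detection without the spot-found rule, and leaving out control 1 together with nitrate 4, were chosen after seeing the data.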

Additional observations from a re-analysis of the deposited data

Results flagged for a closer look

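Within groups of 5 or 6 mice, 84 sets of values were examined for a sample whose gap to its nearest neighbour was large relative to the range of the group. This was found in 8, all in controls, where chance alone would give about 1 in 20. The limit on this ratio is higher for 5 mice than for 6. No glutathione peroxidase passed it, but Gpx3 in nitrate 4 came to 0.695, above the ratio of several controls named here and short of the limit for 5 mice. Control 1 was high for Prdx5 (gap over range 0.643) and for the striated muscle marker mean (0.628), and low for Ggt7 (0.697), the smooth muscle marker mean (0.771) and the fibroblast marker mean (0.707). Control 3 was high for Adipoq (0.628) and Sepp1 (0.627), and control 2 for Pdgfra (0.716).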

How the results depend on the processing

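The Gpx3 difference kept its direction and call in all fits, and Gpx4 lost its call only with the adipocyte marker mean as a covariate, at -0.15. With that covariate 1 of the detected members was called, against 2, and 5 pathway genes against 10, only 3 of which were the same genes. Of all detected probes 7.45% were called with it, against 9.00%. Gpx2, which is not among the detected members, gave -0.39 there in a fit over all probes, past the limits. At an adjusted P value under 0.05 by limma, 0 members and 0 pathway genes were called, against 2 and 14 at an unadjusted P value under 0.05. Within single slides Gpx3 gave -0.71, -0.79 and -0.39 and Gpx4 -0.75, -0.38 and -0.34, each from 1 or 2 nitrate treated mice. With arrays left out in turn, Gpx3 ranged from -0.70 to -0.56, Gpx4 from -0.54 to -0.41, members called stayed at 2, pairs that differed were 5 or 6, and pathway genes called ranged from 4 to 12. The count was 4 without nitrate 2, 4 without control 1, 6 without control 2, and 4 without control 1 and nitrate 4 together. Over all detected probes 6.84%, 6.75%, 8.54% and 7.89% were called in these fits, against 9.00% with all arrays. Gpx1 changed sign with the covariate (0.011), without control 1 and nitrate 4 together (0.034) and in 4 of the single omissions. The single omissions ranged from -0.059 to 0.037, and Gpx1 was called in none of these fits. The other alternatives moved no call of a member and kept the counts of members, pairs and pathway genes within 1.5 times where these were counted. Pairs were counted only with 75th percentile scaling, normexp background correction, the deposited log2 table, the offset and single left-out arrays. Pathway genes were not counted for detection without the spot-found rule. Over all detected probes, however, normexp background correction called 1217 against 2127. Same-numbered mice of the 2 groups did not deviate together (correlations -0.14 to 0.18). With the number as a replicate block, Gpx3 was -0.59, Gpx4 -0.54 and 13 pathway genes were called, and the block changed no call of a member. Gpx2 was left out of the tests by the spot-found flag, and Gpx5 and Gpx6 had no signal well above background to compare.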
